A study of Mus musculus with 3 samples.

Results

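These results concern positions listed by a crosslinking experiment on ZFP36L1 in mouse thymocytes that lie in genes labelled as 3 classes of long non-coding RNA. The classes carry the deposited labels processed_transcript (a transcript with no open reading frame that fits no narrower class), antisense (transcribed from the strand opposite another gene) and sense_intronic (lying within an intron of another gene on the same strand). The members were chosen by those labels alone, leaving out the gene Gm26917, whose 352 positions held a summed count of 1462. They numbered 5719 of the 462392 listed positions (1.24%) and lay in 547 genes. The gene annotation GENCODE vM21 types some of these genes otherwise. It has Zfp950, listed as 5830428H23Rik, as protein-coding and Atp10d as a polymorphic pseudogene.

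The data came from iCLIP, in which ultraviolet light joins a protein to the RNA it touches, the protein is pulled down, and the complementary DNA made from the RNA stops beside the joined base, so that a position can be read to the nucleotide. Naive thymocytes of C57BL/6JBabr mice were irradiated with 300 mJ/cm2, and complexes were taken down with an antibody labelled Brf1/2, Brf1 and Brf2 being older names of ZFP36L1 and ZFP36L2, so a position cannot be assigned to ZFP36L1 alone. The libraries were 1 labelled DCKO and 2 labelled WT; the labels do not spell out the DCKO alleles, give no age, and treat all 3 libraries alike. A single list with no library column held the processed values. DCKO and WT could therefore not be compared, no value has a replicate error, and no test was made. No label or header says which of the libraries entered it.

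ZFP36L1 belongs to a family of zinc finger proteins that bind AU-rich elements, often with UAUUUA at their core, and bring mRNAs to decay. It is best known as a binder of 3′ untranslated regions (UTRs) of mRNAs, and with ZFP36L2 it is needed for orderly T cell development in the thymus. Long non-coding RNAs of the classes studied here include precursors from which microRNAs and small nucleolar RNAs (snoRNAs) are cut, transcripts that act in the nucleus, and transcripts that overlap protein-coding genes on the other strand.

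The sequences at the strongest positions show the range of what was listed. Each is 29 nt long and is read from GRCm38 with the position in its middle. The first 6 are shown because they stand in the highest peaks of their genes, and the capital marks the crosslinked base.
Gm4258, chr1:137901767-137901795, + strand: ttcattctttgtacTtctaatttagaaaa
Gas5, chr1:161036796-161036824, + strand: aagctctttaatgtTtttttctaggtgga
5830418P13Rik, chr9:103427630-103427658, + strand: catattgtttttttTtttttcctcttctt
Tug1, chr11:3647502-3647530, - strand: ttttttttttttttTttttttttgggggg
4930555B11Rik, chr2:57182099-57182127, + strand: agcgcgcgcttcgcAtgtgtgaggtcccg
Gm15564, chr16:35981731-35981759, - strand: ggaacgtgagctggGtttagaccgtcgtg

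In the next 5 the capitals mark TATTTA, the DNA form of the AU-rich core, and they are shown because they are among the strongest positions of their genes with that hexamer in the printed stretch.
Gm12940, chr4:127035786-127035814, + strand: acgttTATTTAttattctttaggtaagaa
Gm4258, chr1:137903884-137903912, + strand: atgtcatatgtatacatgaTATTTAttag
2610307P16Rik, chr13:28881413-28881441, - strand: tttgttcttccacttatttgttTATTTAt
5830418P13Rik, chr9:103428547-103428575, + strand: ttgtgttttTATTTATTTATTTATTTAgg
Dleu2, chr14:61635198-61635226, - strand: ttttaaggcttatacatttcttTATTTAa
The first 4 of the 11 are rich in thymidine, the DNA form of uridine, with 14 to 23 thymidines in 29 bases. The 4930555B11Rik and Gm15564 stretches are not, with 6 and 7.

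The members held a summed count of 9354, or 1.15% of the 814493 in the whole list. The count at a position is the size of the deposited value, whose sign gives the strand. A position was called a site where the authors' false discovery rate (FDR) was below 0.05. Of the members, 2012 were sites (35.2%, 95% Wilson interval 34.0 to 36.4%), against 30.7% of all listed positions. Intervals of this kind cover counting error only, and positions within a gene share that gene's abundance. Processed transcripts gave 4483 positions, a summed count of 7271 and 1650 sites in 238 genes. Antisense genes gave 1120 positions, a summed count of 1904 and 338 sites in 284 genes. Sense intronic genes gave 116 positions, a summed count of 179 and 24 sites in 25 genes. The share of positions that were sites was 36.8% in processed transcripts, 30.2% in antisense genes and 20.7% in sense intronic genes.

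Most of the signal was intronic. The list labelled 5027 members intron, with 85.6% of the summed count, and 692 ncRNA, its label for the exons of non-coding genes, with 14.4%. Counts at a position were low, at 1 for 52.2% of members, 2 for 41.8% and 3 or more for 6.00%. The share at 3 or more was 3.72% in introns of protein-coding genes and 26.5% in long intergenic non-coding RNAs (lincRNAs), a class that holds Malat1 and Xist.

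The counts were spread very unevenly over genes. The processed transcripts Gm4258 and 2610307P16Rik together held a count of 3922, which was 41.9% of the members' total, and the 10 highest genes held 60.5% (59.5 to 61.5%). By contrast 270 genes had a single position, the median gene had a summed count of 2, and 108 genes reached 10. At least 1 site was found in 225 member genes (41.1%), against 59.7% of the 14592 named genes in the list. Counts were not divided by RNA abundance, which was not measured here, so a high count does not separate a strongly bound RNA from an abundant one.

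**Figure D1:**
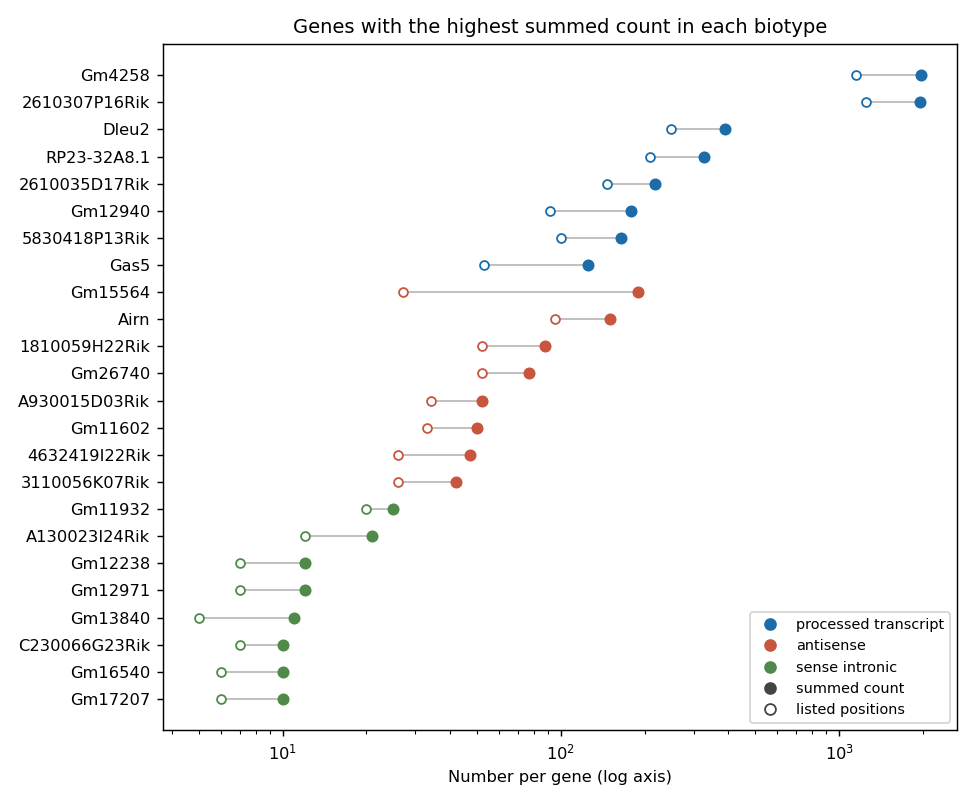
Summed count (filled) and number of listed positions (open) on a log axis for the 8 genes of highest summed count in each biotype. Gm4258 and 2610307P16Rik stand apart at 1974 and 1948, and in Gm15564 the count of 190 lies on 27 positions.

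Gm4258, a gene on the + strand of chromosome 1 (137898595 to 138000384), had the highest count of any member, and it was eleventh among all named genes in the list. It spans the hairpins of Mir181a-1 (chr1:137966455-137966541) and Mir181b-1 (chr1:137966639-137966718), whose microRNAs are known in thymocytes for setting the sensitivity of T cell receptor signalling. The mature sequences, from RefSeq on GRCm38.p6, are shown with the seed (bases 2 to 8) in capitals because the pair share it.
mmu-miR-181a-5p: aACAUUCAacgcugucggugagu
mmu-miR-181b-5p: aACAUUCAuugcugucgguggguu
Gm4258 had 1147 positions, a count of 1974 and 494 sites, at 19.4 counts per kb of gene. Of these positions 1142 were labelled intron.

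The count along Gm4258 was high on one side of the hairpins and low on the other. Positions upstream of Mir181a-1 held 1889 counts (95.7%) and those downstream 85. Each of the first 7 stretches of 10 kb from the gene start held between 195 and 373 counts. The next stretch, 70 to 80 kb, held 57, and the 2 after it held 11 and 14. The hairpins themselves carried almost no signal. No position was listed inside Mir181a-1, and a single position with a count of 2, labelled miRNA and so not a member, lay inside Mir181b-1. The nearest Gm4258 position lay 70 nt from the Mir181a-1 hairpin with a count of 1, and within 1 kb there were 20 positions with a count of 28.

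Positions no more than 15 nt apart were joined into clusters. Gm4258 had 554 clusters, and the 36 that reached a count of 10 held 40.98% of its count. The highest, at chr1:137955536-137955605, held a count of 70 on 24 positions, none above 6. The second, at chr1:137901770-137901799, held 68 with 28 of them on a single base, the thymidine capitalised in the first sequence above. The third, at chr1:137959792-137959804, held 60 on 10 positions. TATTTA lay within 20 nt of 17 of the 24 positions in the highest cluster and of 8 of the 10 in the third, and of no position in the second. High clusters in this gene thus included both those with the AU-rich core and those without it.

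**Figure D2:**
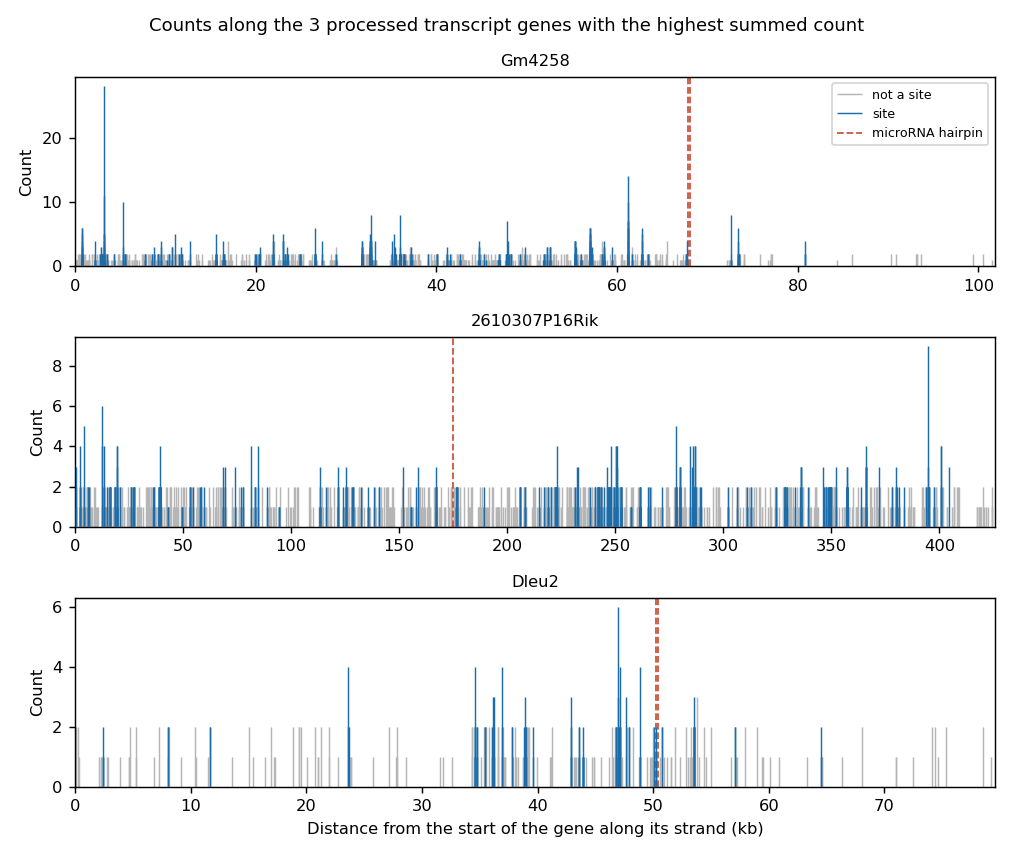
Count at each listed position (vertical lines, blue for sites and grey for other positions) against distance from the gene start in kb for Gm4258, 2610307P16Rik and Dleu2, with microRNA hairpins as dashed red lines. In Gm4258 nearly all lines lie left of the hairpins, in 2610307P16Rik lines run along nearly the whole gene, and in Dleu2 they are densest between 30 and 50 kb.

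2610307P16Rik, on the - strand of chromosome 13 (28460034 to 28885620), is a transcript of 425.587 kb, and no function is assigned to it in the files used here. It had 1245 positions, a count of 1948 and 464 sites, close to Gm4258 in total but at 4.58 counts per kb. No position exceeded a count of 9. Each stretch of 50 kb up to 400 kb from its start held between 162 and 331 counts, and the rest of the gene held 50. Of its 909 clusters, 20 reached a count of 10, and these held 15.04% of its count, against 40.98% in Gm4258. The nearest protein-coding gene was Sox4, a transcription factor of lymphocyte development, 63.299 kb upstream on the same strand. Between the 2 genes a single position with a count of 1 was listed on that strand, and Sox4 itself had a count of 222. The gene also spans the hairpin of Mir6368, with 757 counts (38.9%) upstream of it and 1191 downstream, and no position was listed inside the hairpin.

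Dleu2, on the - strand of chromosome 14 (61602839 to 61682373), hosts Mir15a (chr14:61632027-61632110) and Mir16-1 (chr14:61631880-61631972), microRNAs known for restraining the cell cycle and for their loss in chronic lymphocytic leukaemia. Their mature forms are shown because they too share a seed.
mmu-miR-15a-5p: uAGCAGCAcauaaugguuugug
mmu-miR-16-5p: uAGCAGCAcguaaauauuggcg
Dleu2 had 248 positions, a count of 389 and 94 sites, at 4.89 counts per kb. Most of the count, 309 (79.4%), lay upstream of the hairpins, though 80 lay downstream. The hairpins in Gm4258, 2610307P16Rik and Dleu2 stand at different places along their genes. The shares upstream were not set against the length of gene on each side, so they cannot be compared between these genes. The stretches from 30 to 40 kb and from 40 to 50 kb held 106 counts each, against 33, 25 and 30 in the 3 before them. Inside the hairpins the list gave 1 position with a count of 5 in Mir15a and 2 positions with a count of 3 in Mir16-1, all labelled miRNA and not members. The nearest Dleu2 position lay 31 nt from the Mir15a hairpin with a count of 2.

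In each of these 3 transcripts the sites lay where the sequence is richer in the AU-rich core and in thymidine than the gene as a whole. In Gm4258, 15.99% of sites had TATTTA within 20 nt, while 2.54% of all windows of that length (41 nt) along the gene hold it. In 2610307P16Rik the shares were 12.1% and 2.26%, and in Dleu2 20.2% and 3.11%. TTTTTT lay near 23.1% of Gm4258 sites, 33.2% of 2610307P16Rik sites and 25.5% of Dleu2 sites, against 2.98%, 3.79% and 5.73% of their windows. The crosslinked base was a thymidine at 68.8%, 67.7% and 65.96% of sites, whereas thymidine makes up 31.3%, 31.3% and 30.7% of the genes. Windows were taken on the gene's own strand, including stretches where reads may not map uniquely. Neighbouring sites of a cluster can share a single copy of a motif, so the sites are not separate observations. In Gm4258, for example, 17 positions of the highest cluster lay near TATTTA.

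The other processed transcripts of highest count differed in size and in where the count lay. RP23-32A8.1 (count 326, 74 sites) is a name that neither GENCODE vM21 nor RefSeq holds. All 209 of its positions lie within 1810026B05Rik, which RefSeq calls Chaserr, a transcript known for restraining its neighbour Chd2 in cis. TTTTTT lay near 48 of its 74 sites and TATTTA near 8. 2610035D17Rik (count 218) spread over 157.944 kb with 23 sites and no position above 3. 5830418P13Rik (count 165, 51 sites) is labelled antisense in GENCODE vM21, opposite Bfsp2. A repeat of the AU-rich core stands at one of its sites and an uninterrupted run of thymidines at another, as the sequences above show.

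Gm12940 (count 178, 57 sites) overlaps Sfpq, which encodes an RNA-binding protein of nuclear paraspeckles. Of its 91 positions 77 lie inside Sfpq on the same strand. Its highest cluster, at chr4:127035755-127035818, held a count of 77 on 22 positions, all of them sites. TATTTA lay near 16 of the 22. The strongest position lies in an exon of Gm12940 and in an intron of Sfpq, so that these counts could come from RNA of either gene. Sfpq itself had a count of 396 under its own name.

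Among the 21 host genes of snoRNAs and other small RNAs that were looked up, 16 had a listed position, and 5 of these were members. A site was found in 2 of the 5, against 59.7% of the 14592 named genes in the list. Gas5, a snoRNA host whose spliced RNA accumulates when growth stops, had 53 positions, a count of 125 and 16 sites, at 30.4 counts per kb. Of its positions 43 were labelled ncRNA. Of its count, 47 (37.6%) lay within 50 nt of a snoRNA annotated on the same strand. The strongest position, with a count of 14, is the thymidine in the short run shown above. No Gas5 site had TATTTA within 20 nt. Snhg3, host of Snora73a and Snora73b, had a count of 38 and 13 sites, with 42.1% of its count within 50 nt of them. How much of Gas5 or Snhg3 lies within that distance was not measured. These shares therefore do not show a concentration near snoRNAs. Snhg17, listed under an older name, had a count of 11 and no site.

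Of 12 microRNA host genes looked up by name, 5 had a position, and 3 were members, each with a site. Of all named genes in the list, 59.7% had at least 1 site. Beside Dleu2 these were Mir99ahg with a count of 11 and Mir22hg with a count of 10. Gm4258, which spans Mir181a-1 and Mir181b-1, was not found under the name looked up, Mir181a-1hg. It is therefore missing from this tally, though it had a count of 1974 and 494 sites. Of 12 nuclear and widely expressed long non-coding RNAs, 9 had a position and 3 were members, 2 of them with a site. Tug1, known for its part in nuclear gene control, had a count of 75 and 21 sites, of which 18 lay near TTTTTT and none near TATTTA. A single cluster of 53 nt held 18 of the 21 Tug1 sites, so they are not separate places along the RNA. Firre, an X-linked nuclear RNA, had a count of 60 and 18 sites, 12 near TTTTTT and none near TATTTA. Dnm3os had a single position with a count of 1. The lists were drawn up with earlier results of these data known, and they are given as descriptions.

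A few member genes had most of their count in or beside small RNA genes. All 6 positions of 4930555B11Rik (count 50) lay within an alanine transfer RNA gene, n-TAcgc8, with 36 counts on 1 base, shown above. In the antisense gene Gm17494, 10 of 13 positions lay within 50 nt of an arginine transfer RNA gene, with 38 of its 41 counts. Positions within 50 nt of a transfer RNA gene made up 1.005% of the members' count and those within 50 nt of a snoRNA 1.10%. The sense intronic gene Gm12238 is annotated as a snoRNA in RefSeq, and its 7 positions held a count of 12 with no site. The remaining members with high density included 1110038B12Rik, at 26.0 counts per kb, where 15 positions in 23 nt held 43 of its 58 counts. 4930555B11Rik, Gm17494 and 1110038B12Rik were chosen after their values were seen.

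Antisense genes had a median summed count of 2, and a single short stretch gave the highest. Gm15564, on the - strand of chromosome 16, had a count of 190, of which 182 lay at chr16:35981745-35981773 on 22 positions, all sites, and 48 on 1 base. None of its sites had TATTTA or TTTTTT within 20 nt, and 6 of its 25 sites were at a thymidine. The surrounding sequence is nearly the same as part of the Lars2 3′ UTR, with 127 aligned nt at 99.2% identity (1 mismatch and no gap). The Lars2 stretch searched, chr9:123461938-123462158, is longer than the aligned part, and over its whole length it carried 59 sites with a count of 353. Reads from such near-identical copies may be assigned to either, so the count of Gm15564 is uncertain. The stretch had no match in the ribosomal set used here. That set may lack parts of the ribosomal DNA repeat, so a ribosomal source of these reads cannot be told apart. Without it the highest antisense gene was Airn.

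Airn, the transcript that silences the paternal copy of Igf2r in cis, had 95 positions, a count of 150 and 18 sites over 118.826 kb. TATTTA lay near 5 of the 18 and TTTTTT near 9. The strand opposite held a count of 24 within the bounds of Airn, all assigned to Igf2r, which encodes the receptor that clears insulin-like growth factor II. The next antisense genes were 1810059H22Rik (count 88), Gm26740 (77), A930015D03Rik (52), Gm11602 (50), 4632419I22Rik (47) and 3110056K07Rik (42). Each of them had between 5 and 18 sites. RefSeq now calls Gm11602 Ino80dos and 4632419I22Rik Brip1os. A930015D03Rik lies opposite H2-T24, and 9 of its 13 sites lay near TTTTTT.

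For 243 antisense genes GENCODE vM21 gave a span, and the count on the gene's own strand could be set beside everything listed on the other strand within the same bounds. On their own strand they held a count of 1674 in sum, against 3300 on the other strand. The sum on the other strand rested on few genes, since 152 of the 243 had nothing listed there. The own strand was higher in 185, the other strand in 43, and 15 were equal. Every gene in this set has a position on its own strand by the way it was chosen, so the 185 says little, and no test was made. Among the 18 with a count of 20 or more on their own strand, 15 were higher on that strand. These 18 were picked by their own-strand count, so the 15 says little either.

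Some antisense genes had far lower counts than the strand opposite them. Tsix, which represses Xist in cis, had a single position with a count of 2, against 840 for Xist within its bounds. Gm16599 had 4 counts opposite 360 in Cux1, A630014C17Rik had 2 opposite 337 in Tcf7, and Gm2245 had 3 opposite 183 in Fyb. Cux1 and Tcf7 encode transcription factors, Tcf7 that of early T cell commitment, and Fyb encodes an adaptor of T cell receptor signalling. These partners were picked after their values were seen. 4632419I22Rik had 47 counts, against 413 opposite it, 378 of them in Med13. Of 13 X inactivation and imprinted non-coding RNAs looked up, 7 had a position and 3 were members, namely Airn, Tsix and Nespas, the last with a count of 11 and no site.

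**Figure D3:**
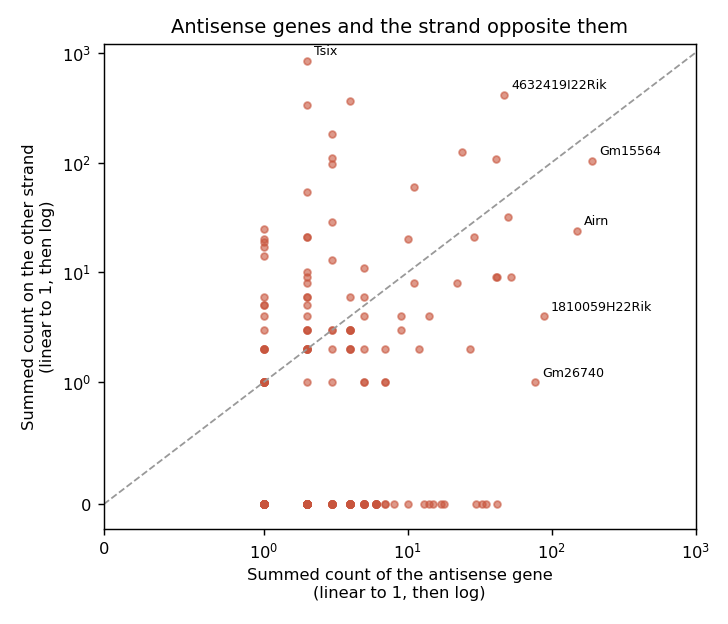
Summed count of each of 243 antisense genes on its own strand (horizontal) against the count on the opposite strand within its bounds (vertical), both axes linear to 1 and logarithmic above, with the dashed line marking equal counts. Most genes lie at the lower left with 0 on the other strand, Airn and Gm15564 lie below the line, and Tsix lies at the top left.

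All 116 sense intronic positions lay inside a protein-coding gene on the same strand, so their counts cannot be separated from the intron RNA of that host. Gm11932, within Bach2, a repressor of lymphocyte effector genes, had the highest count, 25 on 20 positions, and no site. A130023I24Rik, within Adam12, had 21. Gm12238 within G3bp1 had 12, Gm13840 within Pxn had 11, and C230066G23Rik within Lrrc8c, Gm17207 within Fryl and Gm16540 had 10 each. C230066G23Rik had the most sites, 6. The introns of Adam12 held a count of 301 under its own name. Overlap with protein-coding genes also touched the other classes. On the same strand it took in 10.9% of antisense positions and 8.12% of processed transcript positions. On the other strand it took in 36.4% and 5.64%.

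Around the sites of processed transcripts and antisense genes, the AU-rich core was less frequent than in protein-coding transcripts. TATTTA lay within 20 nt of 288 of the 2012 sites (14.3%, 12.9 to 15.9%), against 20.6% of all listed sites, 22.1% in protein-coding introns and 28.9% in protein-coding 3′ UTRs. In lincRNAs it was 11.2%. By class the share was 15.2% in processed transcripts (13.6 to 17.0%), 10.4% in antisense genes (7.54 to 14.1%) and 8.33% in sense intronic genes (2.32 to 25.8%), where it rests on 2 of 24 sites and the interval spans the share of protein-coding introns. The motif began downstream of the site in 151 cases and upstream in 69, and in 68 the site lay inside it. Members labelled intron and ncRNA were alike in this share, at 14.3% and 14.5%.

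Thymidine itself was close to its share over the whole list. The crosslinked base was a thymidine at 66.1% of member sites (64.0 to 68.1%), against 65.2% of all listed sites, 69.4% in protein-coding introns and 51.99% in lincRNAs. TTTTTT lay within 20 nt of 666 sites (33.1%), against 31.8% of all listed sites. It was the most frequent hexamer around member sites, followed by TGTTTT at 20.1% (16.6% of all listed sites). The motifs were searched on the strand of the site only, and overlapping matches count once per window. A match says that the letters are there, not that the protein bound them.

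**Figure D4:**
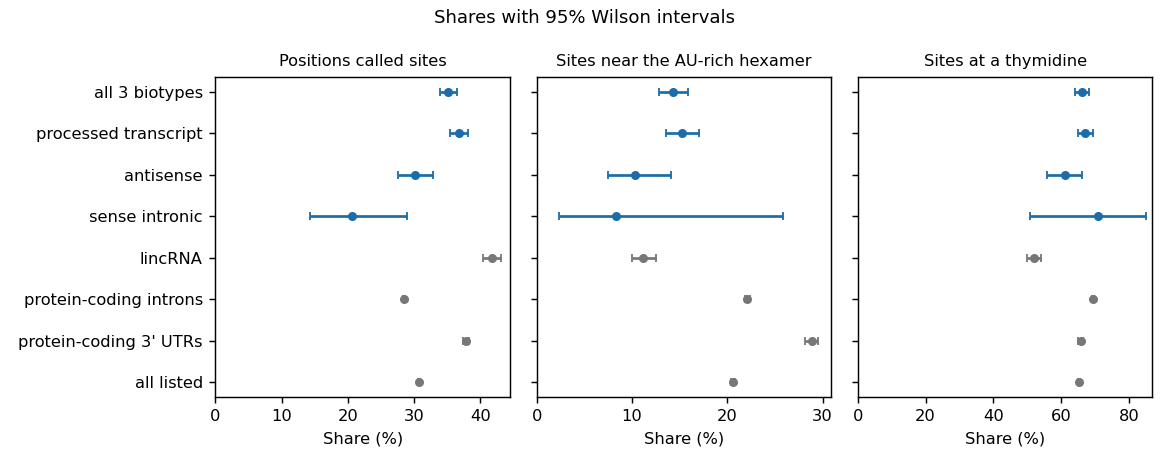
Share of positions called sites, share of sites with the AU-rich core hexamer within 20 nt and share of sites at a thymidine, with 95% Wilson intervals, for the 3 classes (blue) and for other parts of the list (grey). The hexamer share is 14.3% for the 3 classes together and 28.9% in protein-coding 3′ UTRs, while the thymidine shares are 66.1% and 65.8%.

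Thymidine was raised around the site and not at the crosslinked base alone. It stood at 42.2% of member sites 20 nt upstream, 54.9% at the base before the site, 66.1% at the site, and 63.2% and 64.5% at the next 2 bases. At 20 nt downstream it was 45.5%.

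**Figure D5:**
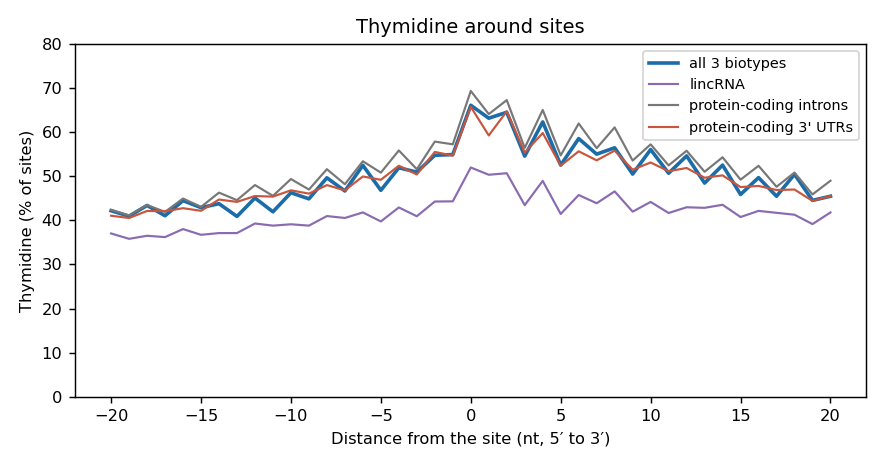
Percentage of sites with a thymidine at each distance from the site, 5′ to 3′, for the 3 classes together (thick blue), lincRNAs, protein-coding introns and protein-coding 3′ UTRs. The blue line peaks at 66.1% at the site and lies near the lines of protein-coding introns and 3′ UTRs, above that of lincRNAs.

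The AU-rich core was more frequent where counts were higher. TATTTA lay within 20 nt of 5.62% of member positions with a count of 1, 10.7% of those with 2, 16.9% of those with 3 or 4 and 23.2% (15.4 to 33.4%) of the 82 with 5 or more, which came from 27 genes. In protein-coding introns the same classes had 6.78%, 13.3%, 29.1% and 48.4%. Of the 82 strongest members, 6 lay in transfer RNA genes and 9 matched the Lars2 stretch. Without those 15, TATTTA lay near 28.4% (18.97 to 40.1%) of the other 67. Thymidine was at 53.7% of the 82 and at 59.7% of the 67. The 27 genes are those of all 82 positions, not of those near TATTTA. Several of the 82 were neighbouring bases of the same cluster, as in Gm12940 and Gm4258. A single copy of the motif can therefore count several times, which the intervals do not allow for.

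Pooled over genes, members of the processed transcript class stood closer together than intronic positions of mRNAs, and those of the other classes did not. Of the 4483 processed transcript positions, 1147 were in Gm4258 and 1245 in 2610307P16Rik. The share without these genes was not computed, so the closeness may not hold for the class at large. Another listed position lay within 15 nt of 46.2% of processed transcript positions, 29.3% of antisense positions and 31.9% of sense intronic positions. For all members the share was 42.6%, against 31.8% in protein-coding introns, 55.7% in protein-coding 3′ UTRs and 69.4% in lincRNAs. In all there were 4007 clusters, of which 3278 were single positions, 98 reached a count of 10 and 27 reached 20. Of member sites, 69.6% lay in soft-masked sequence, the repeats and low-complexity stretches of the genome, against 68.1% of all listed sites.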

How the data were processed

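iCLIP was made from 3 libraries, 1 DCKO and 2 WT, per the labels. The authors deposited one pooled list. Its signed value and extended value per position are scores (whole numbers whose sign is the strand), beside the authors' p-value and FDR, also treated as a score because some values pass 1. The submitters' processing notes name Bowtie and GRCm38. No source used here says how barcodes and repeat reads were treated, and library depth is unknown.

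Positions were shifted by 1 to count from 1, after a check against coding exon ends. Sequence was read from GRCm38.p6 with pysam 0.24.0, and names were matched to GENCODE vM21 (445 of 547 genes) and RefSeq (48), with 54 unmatched. Ribosomal matches used blastn 2.17.0 (30 nt, 90% identity). Intervals are 95% Wilson intervals and reflect counting alone. Counting was tested on simulated data. Named genes are the 8 of highest count per class and up to 3 per list; the host of 1 sense intronic gene is not reported here. Members and lists were chosen with earlier results of these data known.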

Additional observations from a re-analysis of the deposited data

How the results depend on the processing

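Of 34 alternative settings tried on 5 shares, 17 kept the share within its 95% interval and 17 moved it outside. The share of counts in the 10 highest genes (60.5%) was 51.5% without Gm4258, 67.9% in sites only and 66.2% without positions inside same-strand protein-coding genes. The share of positions that were sites (35.2%) was 33.2% without Gm4258, 28.8% at an FDR below 0.01 and 31.7% without Gm4258 and 2610307P16Rik. The share of sites with TATTTA within 20 nt (14.3%) was 16.7% at an FDR below 0.01 and 8.52% over all member positions. It was 8.17% outside soft-masked sequence, 16.04% weighted by count, 24.3% within 50 nt and 19.6% for ATTTA. Thymidine at the site (66.1%) was 58.4% over all member positions, 52.8% outside soft-masked sequence and 63.5% weighted by count. The share of counts in windows matching ribosomal RNA (0.0107%, a single count in Gm14643) was 0 in sites only. It was 2.03% once the Lars2 stretch was joined to the ribosomal set. That set may lack parts of the ribosomal DNA repeat, so the share of 0.0107% may be too low. Settings that leave out both leading genes, same-strand protein-coding overlaps, transfer RNA genes and the Lars2 match, or that join the Lars2 stretch, were chosen after seeing the data. Beyond what each setting removes, the cause was not tested. No paired analysis was possible because the list does not separate the libraries, and for that reason no library could be left out. Counts of 1 or 2 made up most positions, so single genes of low count cannot be ranked.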

Other observations

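Counts of 10 or more at a single base were rare among the members, and the highest were not at the AU-rich core. The count of 48 in Gm15564, 36 in 4930555B11Rik and 28 in Gm4258 each stood where no TATTTA lay in the printed stretch. The Gm15564 position lies in the stretch nearly identical to part of Lars2, so its source is uncertain. That of 4930555B11Rik lies within an alanine transfer RNA gene. The strongest position with TATTTA in the printed stretch, in Gm12940, had a count of 16. Snhg3 and 2410006H16Rik, hosts of snoRNAs, had 42.1% and 100% of their counts within 50 nt of a snoRNA. The share of each gene's length within that distance was not measured. In 2410006H16Rik all 10 positions, with a count of 21, were sites, and none of them lay inside the snoRNAs Snord49a, Snord49b or Snord65 on which they bordered.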
